A study of Mus musculus with 21 samples.

Results

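The HoxA, HoxB and HoxC genes are the rows of the deposited count table whose mouse symbol is Hox followed by a, b or c and a number. There are 30 of them among 24062 genes, with 11 in the HoxA cluster, 10 in HoxB and 9 in HoxC. They were picked by symbol alone, and the number in a symbol is the paralog group, which gives a gene's place in its cluster. Every sample was colon from C57BL/6 mice, which were wild-type or had the App NL-G-F knock-in allele, in which the mouse App gene itself is changed and keeps its own promoter. Colon labelled as untreated was taken from wild-type males, knock-in males, wild-type females and knock-in females, and tumours from AOM/DSS-treated mice came from wild-type males, knock-in males and wild-type females, with 3 libraries in each of the 7 groups. AOM/DSS joins a chemical carcinogen, azoxymethane, with dextran sulphate sodium, which injures the colon lining. The sample labels call the normal colon untreated, while the series text speaks of normal tissue beside tumours or from mice without tumours, so whether a normal library came from a treated mouse is not settled by the sources used here. Age, region along the colon and the animal behind each library are not given, so p-values measure the spread between these libraries, which may be technical in part. Below, WT and KI stand for wild-type and knock-in in figure labels, and a library is named by its group and replicate, with 2 knock-in female normal libraries that carry no number of their own called a and b.

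Hox genes encode transcription factors that bind DNA through a homeodomain, and they lie in clusters in which the order of the genes follows the order of the body levels where they are used. Genes with low paralog numbers act towards the head and genes with high numbers towards the tail, so that a stretch of gut keeps a combination of Hox genes that tells its level. In the hindgut, which forms the colon and rectum, the posterior genes with the highest paralog numbers are the characteristic members, and Hoxb13 and Hoxa13 mark the most distal part. Members are grouped here as anterior (paralogs 1 to 4), central (5 to 8) and posterior (9 to 13).

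On the mm10 build (GRCm38, GENCODE M21), the HoxA genes from Hoxa2 to Hoxa13 lie at chr6:52162417-52260880 on the minus strand, HoxB at chr11:96194316-96368256 on the plus strand and HoxC at chr15:102921103-103036852 on the plus strand. All 30 members are annotated as protein-coding. RefSeq held a promoter for 13 of the 30 members. To show how different the starts of the members can be, the 250 bases before the RefSeq start (GRCm38.p6) are given for 3 HoxA genes with calls in the tumours, Hoxa9 (chr6:52227371-52227620), Hoxa10 (chr6:52240855-52241104) and Hoxa13 (chr6:52260881-52261130), all on the minus strand and read 5′ to 3′. The Hoxa9 window is intronic, within the GENCODE span of that gene, and the other windows end where the gene begins. Capitals mark TTTAT or its reverse complement ATAAA, the letters found in the sites that caudal (Cdx) and posterior Hox proteins bind.

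Hoxa9: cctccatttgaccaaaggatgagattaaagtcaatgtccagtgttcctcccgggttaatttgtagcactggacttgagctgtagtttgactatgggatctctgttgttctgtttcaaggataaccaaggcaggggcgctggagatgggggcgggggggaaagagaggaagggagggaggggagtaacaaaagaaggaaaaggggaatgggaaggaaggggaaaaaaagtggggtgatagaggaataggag
Hoxa10: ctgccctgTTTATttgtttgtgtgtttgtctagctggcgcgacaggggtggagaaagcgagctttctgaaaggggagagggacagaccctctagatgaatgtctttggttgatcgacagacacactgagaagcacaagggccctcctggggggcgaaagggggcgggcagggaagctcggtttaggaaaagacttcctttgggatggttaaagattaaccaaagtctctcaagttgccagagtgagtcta
Hoxa13: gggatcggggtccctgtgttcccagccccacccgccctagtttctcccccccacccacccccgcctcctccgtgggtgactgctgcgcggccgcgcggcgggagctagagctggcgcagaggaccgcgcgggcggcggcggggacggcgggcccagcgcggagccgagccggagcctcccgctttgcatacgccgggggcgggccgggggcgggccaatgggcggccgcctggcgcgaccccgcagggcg

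The Hoxa13 window holds 35 CpG dinucleotides, a number reached by 2.97% of the 32851 RefSeq promoter windows of the same length, whose median is 6. The Hoxa10 window shown holds 7 and the Hoxa9 window 3. RefSeq gives a second Hoxa10 window (chr6:52234940-52235189), which holds 20 CpG dinucleotides and is not printed. TTTAT on either strand occurs once in each Hoxa10 window, in neither of the others, and in 37.3% of all windows.

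HoxA and HoxB each hold a gene for a microRNA of the miR-196 family, whose seed (bases 2 to 8, in capitals) is the same in both forms. The mature sequences are shown with the 3′ UTR site of Hoxa9 that matches the seed (capitals) and 1 of the 4 sites of Hoxa7, because Hoxa9 carries calls in the tumours and Hoxa7 holds the most sites. The Hoxa7 site shown was picked as the one with the most bases complementary to miR-196a, 14 of 22. The mature sequences are at chr6:52230129-52230150 on the minus strand (miR-196b) and chr11:96265187-96265208 on the plus strand (miR-196a), and a second miR-196a copy in HoxC is at chr15:102973365-102973386. Both are credited to RefSeq.

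mmu-miR-196b-5p: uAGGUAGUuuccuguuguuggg
mmu-miR-196a-5p: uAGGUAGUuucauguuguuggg
Hoxa9 site: caaaaggaaagaaaACTACCTt
Hoxa7 site: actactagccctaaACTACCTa

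The seed match ACTACCT was found in the 3′ UTR of members that include Hoxa4, Hoxa5, Hoxa7, Hoxa9, Hoxb1, Hoxb6, Hoxb7 and Hoxc8, with 4 copies in Hoxa7, and in 6.10% of 21028 genes. Mature microRNAs were not measured in these libraries.

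Library totals ran from 3414123 to 26174008 counts, and levels are given as CPM, the usual scaling of counts to library size, with sizes corrected by the trimmed mean of M-values (TMM). The shallowest library was wild-type male tumour replicate 2, in which 3 counts correspond to 0.873 CPM. Of the 30 members, 20 passed the filter on low counts and were tested, namely all 11 of HoxA and 9 of HoxB. Hoxb1 and the 9 HoxC genes were not tested. Epithelial and smooth muscle markers of the colon were present in every group, with none of them at 0. In bulk tissue, fewer cells of a type and less RNA per cell cannot be told apart.

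Levels were compared between members only per kilobase of exon. On that scale Hoxb13 ranked first in all 21 libraries, with a lowest value of 40.6, a median of 73.8 and a highest of 118 CPM per kb. Its neighbour Hoxb9 had a median of 17.7 CPM per kb and ranked between 2 and 4. Hoxa10, Hoxa6 and Hoxa5 followed with means of 13.2, 12.9 and 12.8 CPM per kb, then Hoxa9 with 8.64, Hoxa13 with 7.89, Hoxa7 with 5.85 and Hoxa11 with 3.61. The order among Hoxa10, Hoxa6 and Hoxa5 was not fixed: each of them ranked as low as 6 in some library. These ranks depend on the annotated exon lengths, which were 0.874 kb for Hoxa6 and 5.58 kb for Hoxa9. Before division by length their mean levels were 11.3 and 48.2 CPM, the opposite order. Hoxa3, Hoxa2 and Hoxa4 lay between 2.13 and 2.26 CPM per kb, and the HoxB genes from Hoxb2 to Hoxb8 between 0.306 and 1.04.

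The level did not climb evenly with the paralog number. In HoxB it stepped between Hoxb8 and Hoxb9, whose genes lie 5.31 kb apart: the mean was 0.325 CPM per kb for Hoxb8 and 18.2 for Hoxb9, a ratio of 56.1, and Hoxb9 was above Hoxb8 in all 21 libraries with a lowest ratio of 16.3. A further step of 3.99 in the means led across a 74.01 kb gap to Hoxb13, again in all 21 libraries. In HoxA the steps fell at other places. Hoxa5 was above Hoxa4 in all 21 libraries with a ratio of means of 6.02, whereas Hoxa11 was below Hoxa10 in all 21 with a ratio of 0.274.

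**Figure D1:**
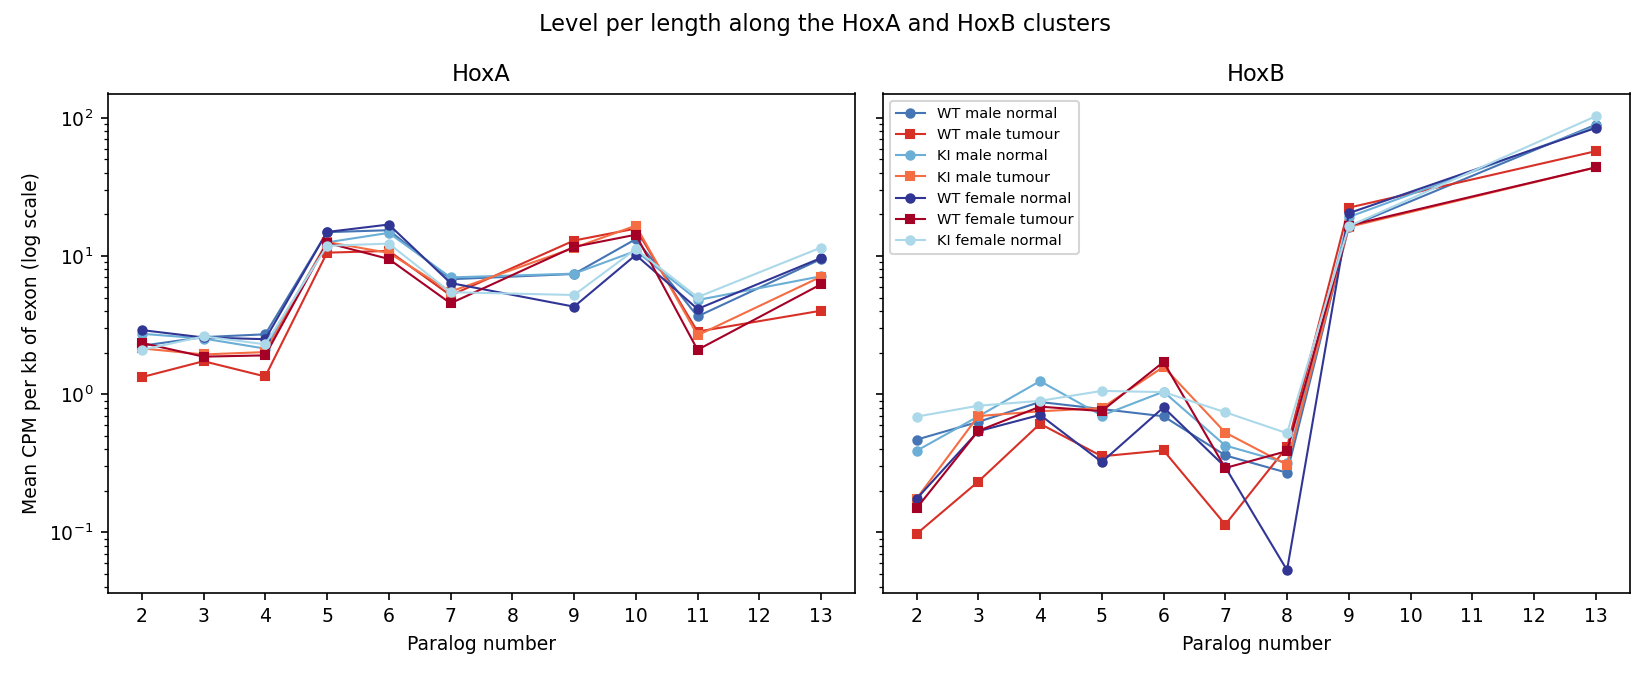
Mean CPM per kb of exon (log scale) against paralog number for HoxA genes from Hoxa2 to Hoxa13 and HoxB genes from Hoxb2 to Hoxb13, with 1 line per group, circles for normal colon and squares for tumours. The step between Hoxb8 and Hoxb9 and the high level of Hoxb13 are present in every group.

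HoxC was close to silent. Hoxc12 had no count in any library, and the other HoxC genes had between 1 and 39 counts summed over 21 libraries. The largest count was 35 for Hoxc10 in knock-in male tumour replicate 3, which also held 8 counts of Hoxc8 and 6 of Hoxc11. Those 3 genes reached at most 2 counts in any other library. The wild-type male and wild-type female tumours had 0 HoxC counts in all 6 libraries, where 3 counts, the limit that a count of 0 allows, correspond to between 0.216 and 0.873 CPM. The noncoding HoxC gene Hotair had 6 counts in knock-in male tumour replicate 3 and 0 in the others. Hoxb1 had 1 count in all.

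**Figure D2:**
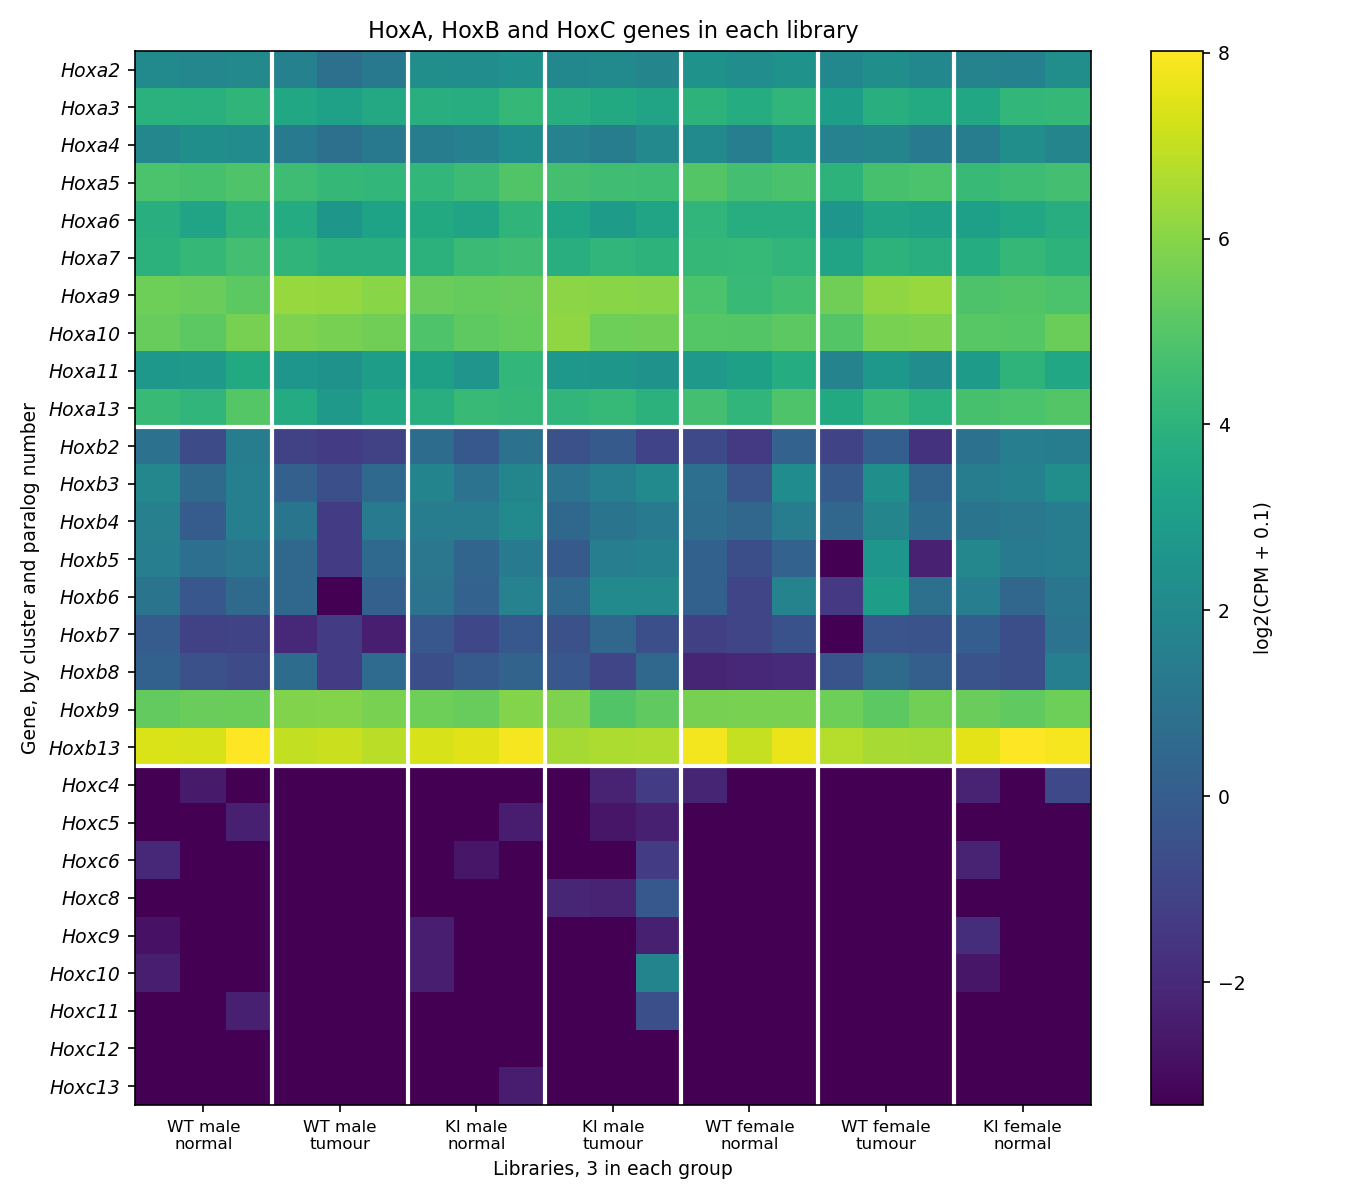
Level of 28 members as log2(CPM + 0.1), with 1 column per library and 3 libraries per group, and rows ordered by cluster and paralog number. Hoxb13 is the brightest row throughout, HoxC is dark in all groups, and the brighter Hoxc10 cell belongs to knock-in male tumour replicate 3.

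Summed over their members, HoxA and HoxB did not give the same pattern between normal colon and tumours. The HoxB sum lay between 211 and 317 CPM in wild-type male normal colon and between 178 and 201 CPM in the tumours of these mice. Knock-in males had sums between 221 and 309 CPM in normal colon and between 142 and 155 CPM in tumours. In wild-type females the ranges were 185 to 283 and 144 to 158 CPM. The HoxB ranges did not overlap in any of these 3 backgrounds. The HoxA sum, in contrast, had overlapping ranges in each, with means of 202 and 200.5 CPM, 186 and 210.3 CPM, and 177 and 196 CPM in normal colon and tumours of wild-type males, knock-in males and wild-type females. The HoxA share of all member CPM was 45.0% in wild-type male normal colon and 51.3% in the tumours, 42.4% and 57.9% in knock-in males, and 42.1% and 55.8% in wild-type females. These sums were formed after values had been seen and carry no test. Hoxb13 makes up most of the HoxB sum. The posterior genes held 77.5% to 83.1% of member CPM as group means, with no common direction between normal colon and tumour.

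Tumour and normal colon were compared in wild-type males, knock-in males and wild-type females with edgeR's quasi-likelihood test and Benjamini-Hochberg adjustment over 15936 genes, and a member is called at an adjusted p under 0.05. The sex and genotype comparisons given later reuse the same libraries. In wild-type males 1 member was higher and 5 were lower in tumours, 6 of 20, while 35.7% of all tested genes were called, 16.5% higher and 19.3% lower. The median log2 fold change was -0.52 over the members and 0.01 over all tested genes. In knock-in males 2 were higher and 1 lower, where 20.4% of all genes were called, 10.4% higher and 9.97% lower, and the medians were -0.09 and 0.01. In wild-type females 2 were higher and 2 lower, where 49.1% of all genes were called, 25.0% higher and 24.0% lower, and the medians were -0.20 and 0.01. Ranges did not overlap for 2 members above and 10 below in wild-type males (all genes 26.0% and 26.4%), 2 and 3 in knock-in males (16.1% and 17.5%) and 3 and 5 in wild-type females (29.9% and 28.6%). Without normal replicate 3 the wild-type male count was 3, and without tumour replicate 2 the wild-type female count was 8. In this fit the share of members called was not above that of all genes in any of the 3 comparisons. In wild-type males it was above with DESeq2 (8 of 20 members, against 37.4% of all genes), with the compared groups alone (7 of 17, against 35.2%) and with the replicate block (7 of 18, against 33.4%). In knock-in males it was above under 5 of the alternatives, by the most with the compared groups alone (2 of 19, against 4.72%). All 8 smooth muscle markers were lower in the tumours of each background: their summed level ran from 2729 to 9112 CPM in wild-type male normal colon and from 180.2 to 711 in the tumours, from 4293 to 7781 and from 821 to 960.0 in knock-in males, and from 1877 to 4339 and from 171 to 209 in wild-type females. Of the 10 colon epithelium markers, 8, 1 and 10 were lower in the tumours of wild-type males, knock-in males and wild-type females. The 7 squamous markers, which mark skin or anal lining, were uneven within groups. They summed to as much as 3773 CPM in knock-in male tumour replicate 2 and 2216 CPM in wild-type male normal replicate 1. The lowest sums in those groups were 95.1 and 5.37 CPM. In knock-in male normal colon the sums ran from 10.1 to 1066 CPM. In wild-type females they ran from 3.41 to 5.85 CPM in normal colon and from 72.1 to 202 CPM in tumours. In wild-type females fibroblast markers summed to 1161 to 1409 CPM in normal colon and 1769 to 2845 CPM in tumours (4 of 7 higher and 2 lower), and endothelium markers to 70.2 to 98.3 and 141 to 219 CPM (3 of 5 higher). The part of these markers in the Hox values was not tested.

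**Figure D3:**
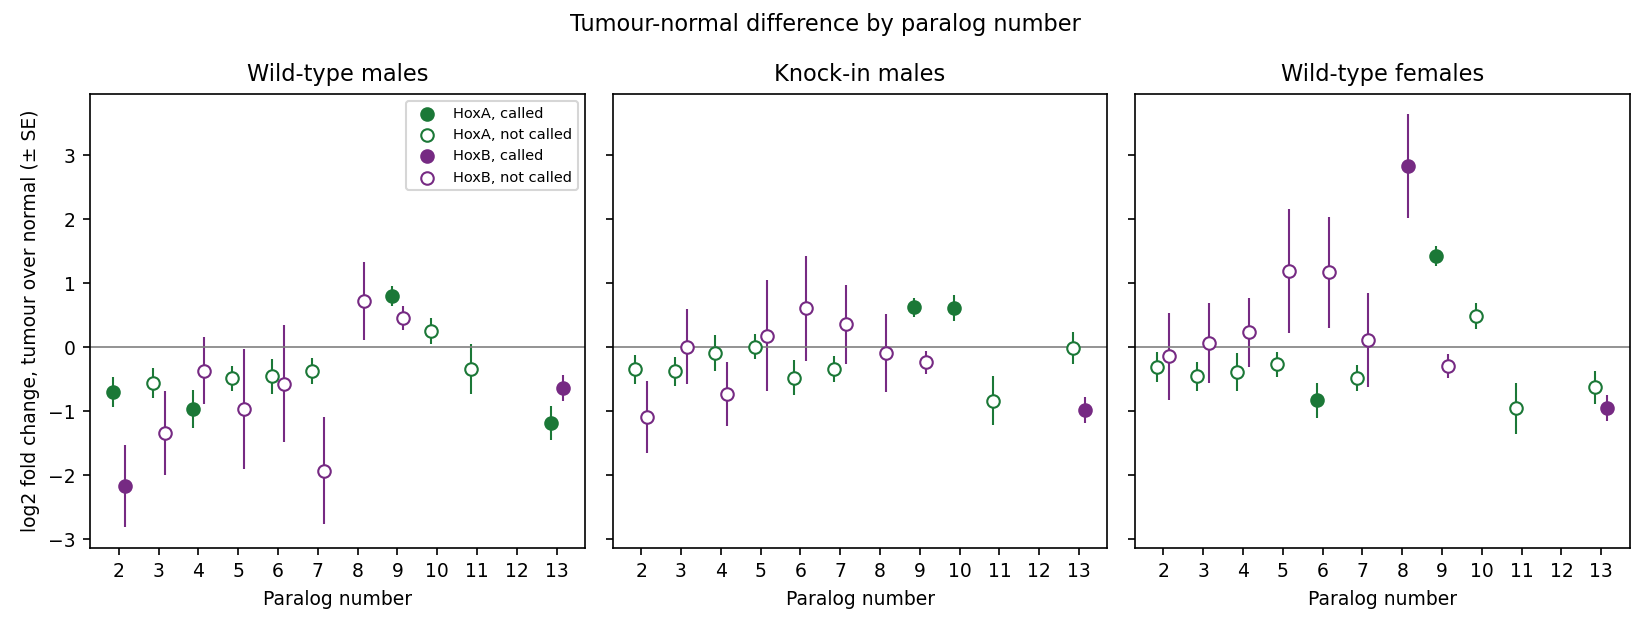
Log2 fold change of tumour over normal colon with its standard error for 10 HoxA and 9 HoxB genes tested, against paralog number, in wild-type males, knock-in males and wild-type females; filled points are called. Hoxa9 lies above 0 and Hoxb13 below 0 as filled points in each panel.

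Of the posterior genes, 2 were called in all 3 tumour comparisons, in opposite directions: Hoxa9 was higher and Hoxb13 lower. Hoxa9 encodes a posterior homeodomain factor best known for its role in blood progenitors and leukaemia. It measured 45.4, 43.4 and 35.4 CPM in wild-type male normal colon and 77.0, 75.7 and 64.1 CPM in the tumours. In knock-in males it measured 42.4, 40.6 and 41.8 CPM in normal colon and 65.6, 64.6 and 61.7 CPM in tumours. In wild-type females the normal libraries had 27.9, 20.2 and 23.8 CPM and the tumours 47.7, 71.2 and 76.1 CPM. Every tumour library was above every normal library of its background. Hoxa9 rose by 0.80 in log2 units (SE 0.15, adjusted p = 0.000558 by edgeR) in wild-type males, 0.62 (SE 0.15, adjusted p = 0.00925 by edgeR) in knock-in males and 1.43 (SE 0.15, adjusted p = 1.11e-06 by edgeR) in wild-type females. The difference between the female and male changes in wild-type mice was 0.63 (SE 0.21) with an edgeR adjusted p of 0.166, which became 0.0332 without wild-type female tumour replicate 1, the lowest of the 3. Hoxa9 exons share 85 bases with the Mir196b hairpin on the same strand.

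Hoxb13 encodes the HoxB factor of the most distal hindgut. It measured 168, 163 and 259.8 CPM in wild-type male normal colon and 126, 137 and 116 CPM in the tumours. The knock-in male normal libraries had 163, 179.8 and 231 CPM, and the tumours 90.9, 97.7 and 101 CPM. In wild-type females the values were 224, 129 and 206 CPM in normal colon and 109, 91.4 and 89.6 CPM in tumours. Ranges did not overlap in any of the 3 backgrounds, although wild-type female normal replicate 2 lay close to its tumours. Hoxb13 fell, with log2 fold changes of -0.64 (SE 0.20, adjusted p = 0.0190 by edgeR) in wild-type males, -0.98 (SE 0.20, adjusted p = 0.00419 by edgeR) in knock-in males and -0.95 (SE 0.20, adjusted p = 0.000742 by edgeR) in wild-type females. The call in wild-type males was lost without normal replicate 3, its highest library (log2 fold change -0.39, edgeR adjusted p = 0.157), without tumour replicate 1 (edgeR adjusted p = 0.0501) and without tumour replicate 3 (edgeR adjusted p = 0.0700).

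The paralogs of these genes in the other cluster did not follow them in every background. Hoxa13, which shapes the distal hindgut and limb ends, measured 19.7, 17.8 and 33.0 CPM in wild-type male normal colon and 12.5, 6.69 and 10.6 CPM in the tumours, and fell by 1.19 on the log2 scale (SE 0.26, adjusted p = 0.00206 by edgeR) with ranges that did not overlap. In knock-in males it measured 13.7, 20.4 and 18.8 CPM in normal colon and 17.6, 19.2 and 15.8 CPM in tumours, with overlapping ranges and a log2 value of -0.01 (SE 0.25). In wild-type females it measured 24.3, 17.6 and 29.9 CPM in normal colon and 11.7, 19.7 and 15.0 CPM in tumours, with overlapping ranges and a log2 value of -0.63 (SE 0.26, adjusted p = 0.0514 by edgeR). The difference between genotypes in the male tumour change of Hoxa13 was 1.18 (SE 0.36) with an edgeR adjusted p of 0.0761. It was called by DESeq2 (adjusted p = 0.0314), and by edgeR without knock-in male normal replicate 2 (adjusted p = 0.0410). In that library 4 markers of prostate and seminal vesicle summed to 34.1 CPM, with Svs2 and Svs4 at 0, against at most 4.53 CPM in any other library, and their part in the result was not tested. The low value of wild-type male tumour replicate 2 rests on 23 counts. In wild-type females Hoxa13 was called by DESeq2 (adjusted p = 0.0353), and by edgeR without normal replicate 2 (adjusted p = 0.0220) or without tumour replicate 2 (adjusted p = 0.0247).

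Hoxb9 measured 38.6, 42.4 and 44.6 CPM in wild-type male normal colon and 57.8, 61.1 and 54.0 CPM in the tumours, so that all tumours lay above all normal libraries. Its log2 fold change there was 0.46 (SE 0.18, adjusted p = 0.0590 by edgeR), past the threshold with DESeq2 (adjusted p = 0.0496) and also in limma voom (adjusted p = 0.00730). In knock-in males it measured 45.6, 41.3 and 61.1 CPM in normal colon and 56.8, 30.2 and 38.4 CPM in tumours, with overlapping ranges. In wild-type females the 3 normal libraries were close together, at 52.5, 52.5 and 52.6 CPM, and the tumours lay below them at 45.1, 35.2 and 48.0 CPM. The log2 fold changes were -0.24 (SE 0.18, adjusted p = 0.364 by edgeR) in knock-in males and -0.30 (SE 0.18, adjusted p = 0.192 by edgeR) in wild-type females. Without knock-in male tumour replicate 1, the highest of its group, the knock-in value was -0.57 (edgeR adjusted p = 0.0279). Between genotypes, the difference in the male tumour change was -0.70 (SE 0.26, adjusted p = 0.116 by edgeR), and that between sexes in wild-type mice was -0.76 (SE 0.26, adjusted p = 0.173 by edgeR). Both were past the threshold with limma voom (adjusted p = 0.0415 and 0.0175). The genotype difference was also past it with edgeR without knock-in male normal replicate 2, the library with the prostate and seminal vesicle markers (adjusted p = 0.0489), or tumour replicate 1 (adjusted p = 0.0453).

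**Figure D4:**
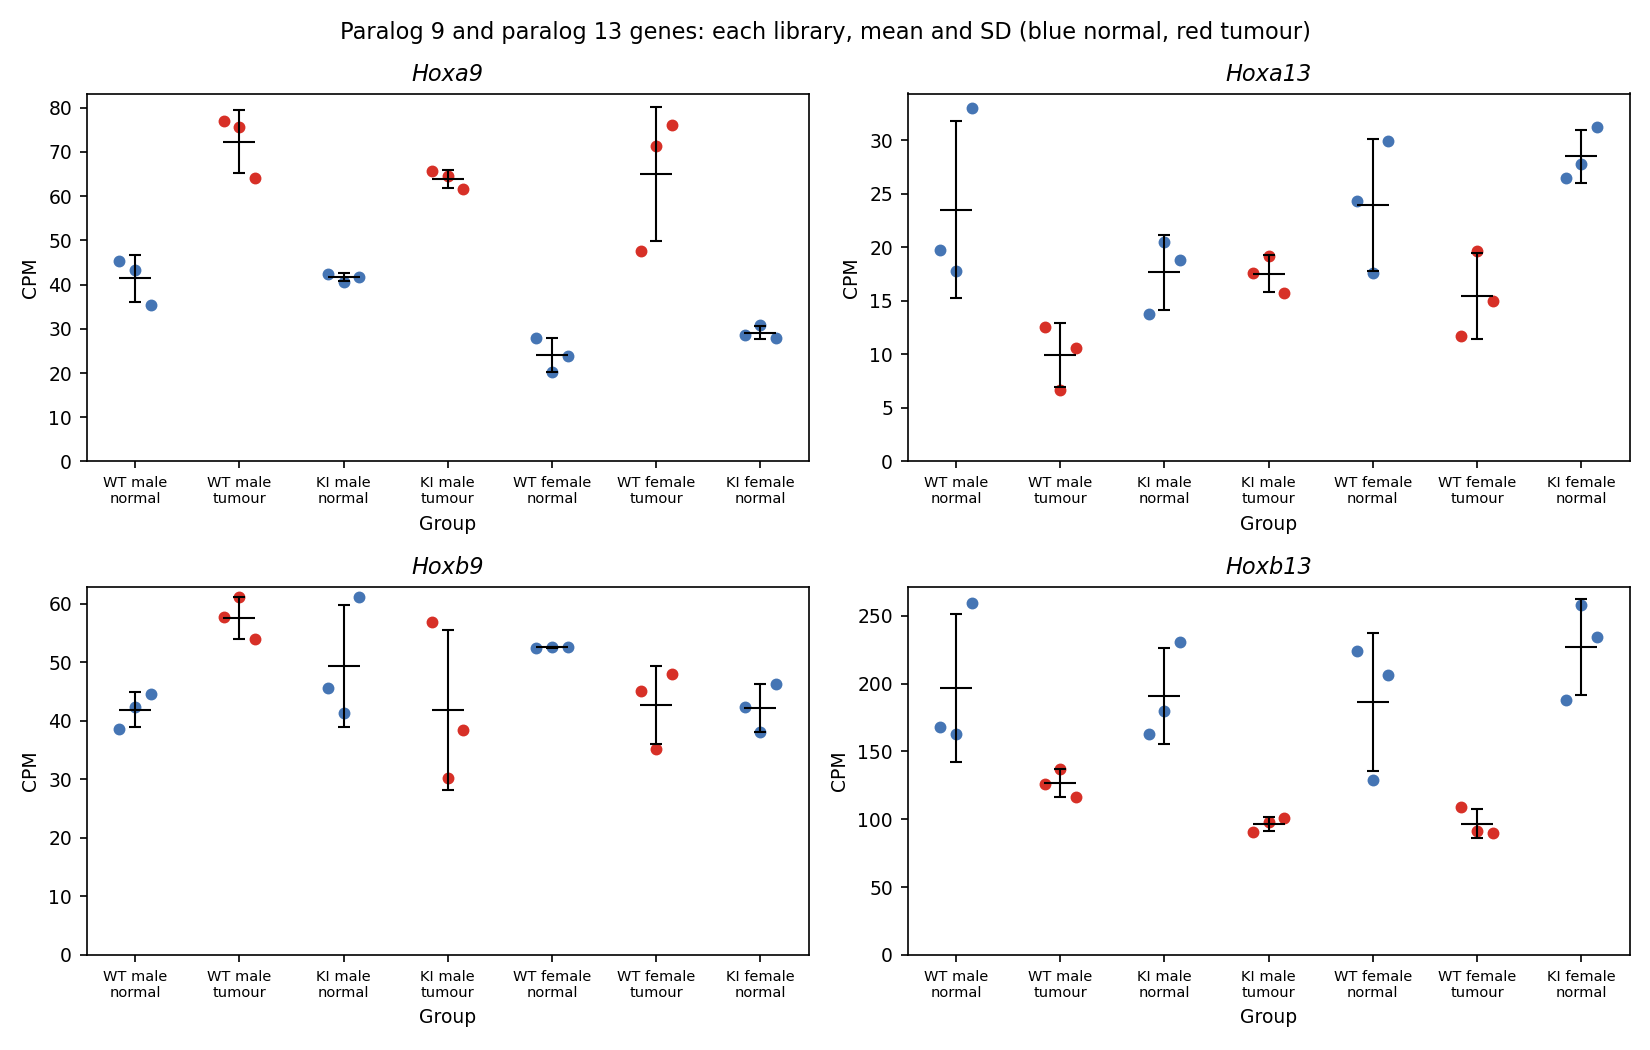
CPM of Hoxa9, Hoxa13, Hoxb9 and Hoxb13 in each library (points, blue for normal colon and red for tumours), with the mean and SD of each group of 3. Hoxa9 is higher in every tumour library than in the normal libraries of its background, Hoxb13 is lower, and Hoxa13 and Hoxb9 overlap in some backgrounds.

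Because both genes of a cluster are read in the same library, the ratio of their counts does not depend on scaling. The ratio of Hoxa9 to Hoxa13 counts was 1.94 ± 0.75 (SD, n = 3) in normal colon of wild-type males and 7.84 ± 3.0 (SD, n = 3) in the tumours. It was 2.43 ± 0.58 and 3.67 ± 0.28 (SD, n = 3 each) in knock-in males, and 1.03 ± 0.20 and 4.26 ± 0.74 (SD, n = 3 each) in wild-type females. Knock-in female normal colon, which has no tumour counterpart here, stood at 1.03 ± 0.12 (SD, n = 3), close to the wild-type females. The ranges did not overlap between normal colon and tumour in any of the 3 backgrounds, from 3.09 against 3.37 at the closest, in knock-in males. The highest ratio, 11.3, came from wild-type male tumour replicate 2, the shallowest library, and the other tumours of that group were at 6.15 and 6.05. The ratio of Hoxb9 to Hoxb13 was 0.221 and 0.456 in normal colon and tumours of wild-type males, 0.258 and 0.438 in knock-in males, and 0.299 and 0.445 in wild-type females, and 0.190 in knock-in female normal colon. Its ranges did not overlap in males of either genotype and overlapped in wild-type females, where normal replicate 2 was at 0.408 and the lowest tumour at 0.385. The pairs of genes were chosen with values known, and the ratios carry no test.

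**Figure D5:**
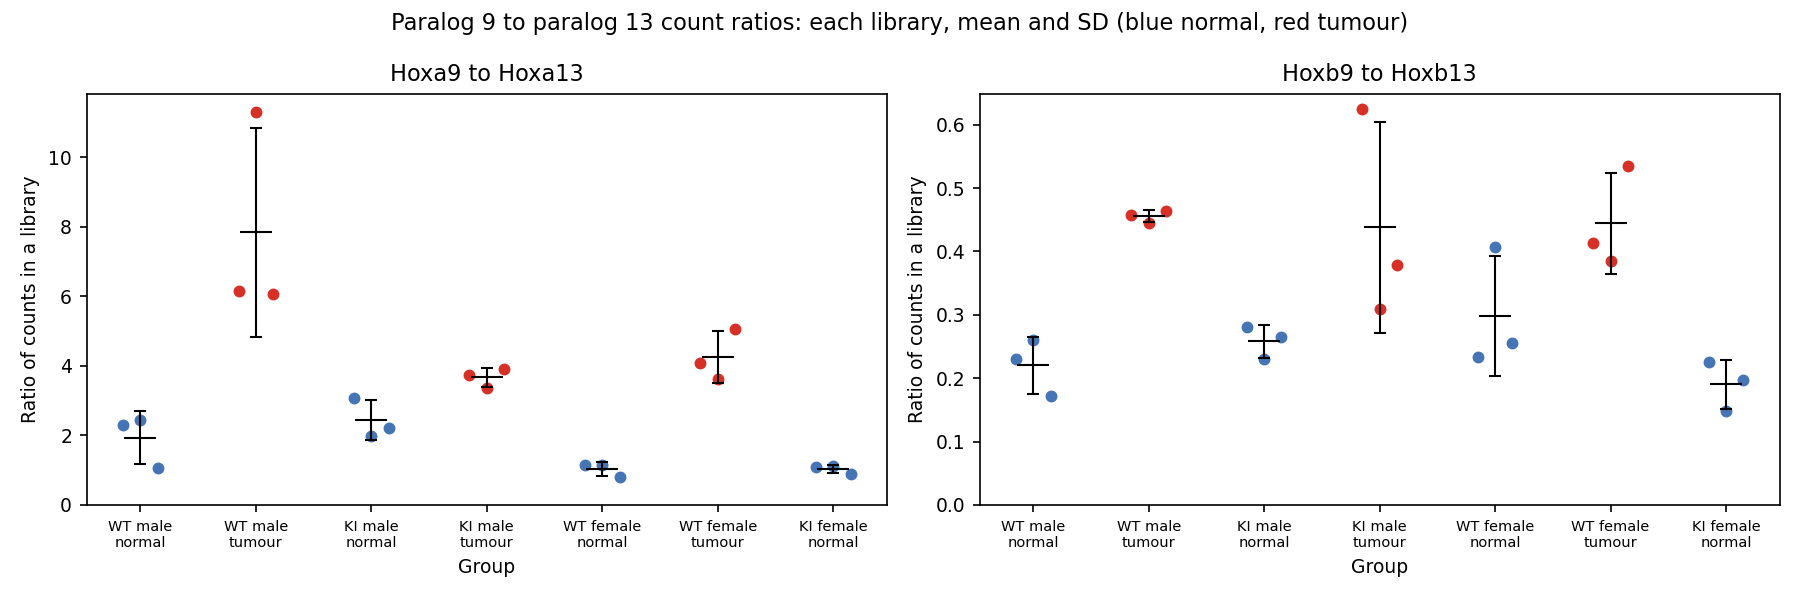
Ratio of Hoxa9 to Hoxa13 counts and of Hoxb9 to Hoxb13 counts in each library (points, blue for normal colon and red for tumours), with the mean and SD of each group of 3. In each background all 3 tumours have a higher Hoxa9 to Hoxa13 ratio than the normal libraries, with the smallest separation in knock-in males.

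The summed paralog groups repeat the genes above and are not separate support. Hoxb13 dominated paralog 13, with a mean of 197 CPM in wild-type male normal colon. Hoxa13 means were 17.6 and 17.5 CPM in normal colon and tumours of knock-in males. In paralog 9, Hoxb9 means went down while Hoxa9 rose, from 49.3 to 41.8 CPM in knock-in males and from 52.6 to 42.8 CPM in wild-type females. Paralog 13 went from 220.3 ± 62.9 CPM in wild-type male normal colon to 137 ± 8.79 in the tumours, from 209 ± 37.3 to 114 ± 4.86 in knock-in males and from 210.5 ± 55.8 to 112 ± 8.13 in wild-type females (SD, n = 3 in each group). Paralog 9 went from 83.3 ± 2.96 to 129.9 ± 10.3 CPM, from 91.0 ± 10.8 to 106 ± 14.7 CPM and from 76.6 ± 3.85 to 108 ± 15.7 CPM in the same order (SD, n = 3 in each group). The paralog 9 ranges overlapped in knock-in males.

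The other posterior HoxA genes gave fewer calls. Hoxa10, whose gene ends 0.107 kb from Hoxa9, measured 29.8, 36.5 and 40.5 CPM in knock-in male normal colon and 70.0, 45.4 and 47.4 CPM in the tumours, without overlap. It rose by 0.61 on the log2 scale (SE 0.20, adjusted p = 0.0416 by edgeR), but leaving out any one knock-in male normal library or tumour replicate 1 took the call away: the adjusted p was then 0.166, 0.0929 and 0.0630 without normal replicates 1, 2 and 3, and 0.263 without tumour replicate 1, the highest. Fitted on the compared groups alone it was 0.117, with the replicate block on the numbered libraries 0.0714, and with a term for the 3 libraries numbered 152 and above 0.0810. In wild-type males Hoxa10 measured 42.0, 36.1 and 51.9 CPM in normal colon and 56.3, 51.2 and 47.5 CPM in tumours, and in wild-type females 32.8, 31.2 and 35.9 CPM and 31.9, 53.8 and 54.3 CPM, with overlap in both. The log2 fold changes were 0.26 (SE 0.20, adjusted p = 0.347 by edgeR) and 0.49 (SE 0.21, adjusted p = 0.0572 by edgeR), and the female value was 0.70 without tumour replicate 1, the lowest (edgeR adjusted p = 0.00778). Hoxa11 was not called in any comparison, with log2 fold changes of -0.34, -0.84 and -0.96 in tumours of wild-type males, knock-in males and wild-type females, and 35.0% of its exon length is shared with the antisense gene Hoxa11os.

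Among the anterior and central genes, calls differed between backgrounds. In wild-type males 3 anterior genes were called and all 3 were lower in tumours. Hoxa4 measured 3.73, 4.87 and 4.38 CPM in wild-type male normal colon and 2.38, 1.75 and 2.30 CPM in the tumours, and fell by 0.97 on the log2 scale (SE 0.30, adjusted p = 0.0161 by edgeR) without overlap. Its log2 fold changes were -0.09 (SE 0.28) in knock-in males and -0.39 (SE 0.29) in wild-type females, neither called. Hoxb2 measured 1.80, 0.524 and 2.59 CPM in normal colon and 0.360, 0.291 and 0.368 CPM in tumours of wild-type males, from 71 and 10 counts in all, and fell by 2.17 on the log2 scale (SE 0.64, adjusted p = 0.0139 by edgeR). The Hoxb2 call was lost without normal replicate 3 (adjusted p = 0.0721) and without tumour replicate 1 (adjusted p = 0.0533). Hoxa2, a gene outside the rule for printing that was added after its call was seen, fell by 0.70 (SE 0.24, adjusted p = 0.0290 by edgeR), from 3.98 ± 0.23 to 2.36 ± 0.64 CPM (SD, n = 3). Leaving out normal replicate 1 or 3 or tumour replicate 2 or 3 gave adjusted p values between 0.0676 and 0.0908 for Hoxa2. Hoxb2 shares 27.3% of its exon length with the antisense gene Hoxb3os and Hoxa4 shares 255 bases with Gm29430, and because the strand setting of the counting is not given, reads of these partners may be mixed.

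In wild-type females the calls outside paralogs 9 and 13 were on central genes. Hoxa6 measured 17.8, 13.4 and 13.2 CPM in normal colon and 6.11, 9.83 and 9.03 CPM in tumours, and fell by 0.83 on the log2 scale (SE 0.28, adjusted p = 0.0195 by edgeR) without overlap. The Hoxa6 call was lost without normal replicate 1 (adjusted p = 0.0979) and without tumour replicate 1 (adjusted p = 0.0938). Hoxa6 measured 14.4, 9.66 and 16.3 CPM in normal colon and 12.7, 6.40 and 9.49 CPM in tumours of wild-type males, and 11.9, 9.69 and 17.0 CPM and 10.3, 7.51 and 9.79 CPM in knock-in males, with overlap in both. Hoxb8, named after its call was seen, had 3, 1 and 1 counts in wild-type female normal colon and 5, 12 and 9 counts in the tumours. The ratio of summed counts, scaled by library size, was 7.72 with an exact 95% interval for counting error only of 2.92 to 25.8, and the edgeR adjusted p was 0.00754. With a term for the 3 libraries numbered 152 and above, of which 2 are tumours of this group, the Hoxb8 adjusted p was 0.0867. These label numbers are not stated to be a batch.

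The central HoxB genes were uneven among tumours of 1 group. Wild-type female tumour replicate 1 had 0 counts of Hoxb5 and 2 of Hoxb6, and replicate 2 had 53 and 69 counts. Wild-type male tumour replicate 2 had 1 count of Hoxb5 and 0 of Hoxb6. None of Hoxb3, Hoxb4, Hoxb5, Hoxb6 and Hoxb7 was called in any of the 3 tumour comparisons. The HoxD genes, summed over 9 genes, were also uneven: 4.89 CPM in wild-type female tumour replicate 1, 89.7 CPM in replicate 3 and 13.3 CPM in knock-in male tumour replicate 1, against 151 to 305 CPM in the other 18 libraries.

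Genotype was compared in male normal colon, male tumours and female normal colon. In male normal colon edgeR called 0 members, with 0 at an unadjusted p under 0.05, and 0.0126% of all genes were called. The DESeq2 and limma voom counts were also 0. In male tumours edgeR called 0 members, with 5 at an unadjusted p under 0.05, and 14.5% of all genes. DESeq2 and limma voom called 1 member each, among 2972 and 3011 genes called in all. Hoxa13 came nearest among the members printed by library, at 0.77 (SE 0.26, adjusted p = 0.0553 by edgeR), with all 3 knock-in tumours, at 15.8 to 19.2 CPM, above the wild-type tumours at 6.69 to 12.5 CPM. DESeq2 gave it an adjusted p of 0.0376. Hoxb9 had a log2 value of -0.46 (SE 0.18, adjusted p = 0.0937 by edgeR), which was -0.79 without knock-in tumour replicate 1 (edgeR adjusted p = 0.0131). Hoxb13 was below in all 3 knock-in tumours, at 90.9 to 101 CPM against 116 to 137 CPM, at a log2 fold change of -0.39 (with SE 0.20, adjusted p = 0.185 by edgeR). Of the 20 members, 8 had ranges wholly above and 1 wholly below in the knock-in tumours, where 20.3% and 16.1% of all genes did so.

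In female normal colon 2 members were higher in the knock-in and none was lower, where 16.0% of all genes were called, and 8.97% of all genes were higher. Both are HoxB genes at low levels. Hoxb2 measured 0.465, 0.279 and 1.08 CPM in wild-type and 1.79, 2.81 and 2.60 CPM in knock-in female normal colon, without overlap, and rose by 2.03 on the log2 scale (SE 0.59, adjusted p = 0.0246 by edgeR). Hoxb8 had 5 counts over the 3 wild-type libraries and 54 over the 3 knock-in libraries, of which 38 were in library b. The scaled ratio was 10.4 with an exact 95% interval for counting error only of 4.19 to 33.3, and the edgeR adjusted p was 0.00932. Without library b the Hoxb8 adjusted p was 0.0664, and without wild-type replicate 1 it was 0.0647. The Hoxb2 call was lost without wild-type replicate 1 (adjusted p = 0.126), wild-type replicate 2 (0.116), library a (0.0879) or library b (0.0560). Markers of several cell types also differed between these libraries, with ranges that did not overlap. Smooth muscle markers summed to between 1877 and 4339 CPM in the wild-type and between 6480 and 9134 CPM in the knock-in female libraries (4 of 8 higher by edgeR), fibroblast markers to 1161 to 1409 and 2247 to 2827 CPM (3 of 7 higher), and endothelium markers to 70.2 to 98.3 and 165 to 180.3 CPM (4 of 5 higher). Colon epithelium markers summed to 15782 to 26813 CPM in the wild-type and 11614 to 12485 CPM in the knock-in (3 of 10 lower). Squamous markers had overlapping ranges. They summed to 3.41 to 5.85 CPM in the wild-type, and to 751, 3.04 and 495 CPM in knock-in libraries 1, a and b. The part of these markers in the HoxB values was not tested. With limma voom 5 members were called, 2 of them higher, among 4457 genes called in all, where edgeR called 2545. The difference between sexes in the genotype effect was called for 0 members, with 4 at an unadjusted p under 0.05, where 2.54% of all genes were called, and by DESeq2 and limma voom for 0. Without wild-type male normal replicate 2 edgeR called Hoxb2 (2.73, adjusted p = 0.0450).

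Between the sexes, Hoxa9 was the only member called in wild-type normal colon, where 15.9% of all genes were called, 5.74% higher and 10.2% lower. All 3 female libraries, at 20.2 to 27.9 CPM, lay below the 3 male libraries, at 35.4 to 45.4 CPM, and Hoxa9 was lower in females, at -0.78 in log2 units (SE 0.15, adjusted p = 0.00243 by edgeR). In the same libraries fibroblast markers summed to 1161 to 1409 CPM in females and 2432 to 2707 CPM in males (3 of 7 lower by edgeR), and endothelium markers to 70.2 to 98.3 and 141 to 241 CPM (5 of 5 lower). Smooth muscle sums overlapped, at 1877 to 4339 and 2729 to 9112 CPM, and markers lower in females by edgeR included Actg2, Lmod1 and Myocd. Mesothelium sums also overlapped, at 2.17 to 27.4 and 1.49 to 7.27 CPM, and Upk3b and Lrrn4 were higher in females. None of these markers was at 0, and their part in the Hoxa9 value was not tested. Hoxb8 was near the threshold at -2.35 (SE 0.80, adjusted p = 0.0530 by edgeR) and passed it without wild-type male normal replicate 3 (adjusted p = 0.0479). Hoxb2, at -1.48 (SE 0.59, adjusted p = 0.0925 by edgeR), passed it without female replicate 3 (adjusted p = 0.0495) or male replicate 2 (adjusted p = 0.0372). The knock-in normal libraries were ordered the same way, with females at 27.9 to 30.8 CPM and males at 40.6 to 42.4 CPM, and a log2 value of -0.51 (SE 0.15, adjusted p = 0.111 by edgeR). In wild-type tumours the Hoxa9 value was -0.15 (SE 0.15, adjusted p = 0.597 by edgeR), with overlapping ranges. In knock-in normal colon edgeR called 0 members, with 2 at an unadjusted p under 0.05, and 0.584% of all genes. DESeq2 called 0 members among 583 genes called in all, and limma voom 1 among 666. In wild-type tumours edgeR called 0 members, with 3 at an unadjusted p under 0.05, and 0.860% of all genes. DESeq2 called 0 members among 835 genes called in all, and limma voom 2 among 2916. The normal libraries of wild-type males and females also enter the tumour comparisons, so a low Hoxa9 in female normal colon and its larger female tumour change rest on the same 3 libraries.

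The tests of a difference between tumour effects called 0 members. Between genotypes in males there were 4 members at an unadjusted p under 0.05, where 1.51% of all genes were called. Between sexes in wild-type mice there were 3, where 1.12% of all genes were called. These shares are edgeR's. DESeq2 called 1 member in the first and 0 in the second, among 1326 and 577 genes called in all. Limma voom called 1 and 2 members, among 1151 and 1445 genes.

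Genes that lie beside the clusters, or in them without coding for protein, were called in both directions. Ttll6, the nearest protein-coding neighbour of Hoxb13 at 28.1 kb and a tubulin-modifying enzyme of cilia, fell with it in all 3 tumour comparisons, with log2 fold changes of -1.98 (SE 0.30, adjusted p = 0.000102 by edgeR), -1.27 (SE 0.28, adjusted p = 0.00701 by edgeR) and -2.60 (SE 0.31, adjusted p = 3.45e-06 by edgeR) in wild-type males, knock-in males and wild-type females. It measured 49.5, 44.6 and 84.6 CPM in wild-type male normal colon and 16.3, 11.1 and 16.7 CPM in the tumours. All 3 tumours lay below all 3 normal libraries.

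Evx1, a homeobox gene 52.6 kb beyond the Hoxa13 end of HoxA, went the other way. It measured 16.8, 18.8 and 3.88 CPM in wild-type male normal colon and 63.1, 49.5 and 58.8 CPM in the tumours, and 1.18, 1.67 and 1.70 CPM in wild-type female normal colon and 27.6, 39.0 and 39.5 CPM in the tumours. Evx1 rose by 2.11 (SE 0.62, adjusted p = 0.0153 by edgeR) and 4.61 (SE 0.78, adjusted p = 0.000151 by edgeR) on the log2 scale. In knock-in males its normal libraries were spread from 4.68 to 27.6 CPM and the log2 fold change was 0.53 (SE 0.60, adjusted p = 0.552 by edgeR). Hottip, a noncoding RNA gene between Hoxa13 and Evx1 that is known to act on the 5′ HoxA genes, fell, at -1.67 (SE 0.38, adjusted p = 0.00233 by edgeR) in wild-type male and at -1.21 (SE 0.37, adjusted p = 0.0103 by edgeR) in wild-type female tumours, with -0.03 (SE 0.35) in knock-in males. Hoxa11os, which overlaps Hoxa11 on the other strand, fell, at -1.07 (SE 0.26, adjusted p = 0.00443 by edgeR) and -1.22 (SE 0.26, adjusted p = 0.000916 by edgeR) in the same comparisons. Another listed noncoding gene, 5730457N03Rik, rose by 2.13 (SE 0.71, adjusted p = 0.0281 by edgeR) in wild-type male tumours. In wild-type female tumours 5730457N03Rik rose by 4.90 (SE 0.92, adjusted p = 0.000393 by edgeR).

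Of the 18 cluster neighbours listed, 17 were tested, and 5, 4 and 6 were higher and 4, 2 and 4 lower, with medians of 0.15, 0.07 and 0.06, in tumours of wild-type males, knock-in males and wild-type females. Snx10, a HoxA neighbour, rose in the same order by 1.16 (SE 0.17, adjusted p = 8.29e-05 by edgeR), 1.02 (SE 0.17, adjusted p = 0.00228 by edgeR) and 1.83 (SE 0.18, adjusted p = 4.65e-07 by edgeR). Of 19 noncoding cluster genes listed, 8 were in the table and 6 tested, with 1, 0 and 1 higher and 4, 1 and 4 lower and medians of -0.87, -0.30 and -0.86. Over all tested genes, 16.5%, 10.4% and 25.0% were higher and 19.3%, 9.97% and 24.0% lower in the same order. Mir196a-1, whose counts are of reads over the hairpin and do not measure the mature microRNA, had 13.5, 10.7 and 11.3 CPM in wild-type female normal colon and 4.75, 5.61 and 4.13 CPM in tumours. It fell there by 1.30 (SE 0.26, adjusted p = 0.000428 by edgeR), while the values in wild-type and knock-in males were -0.60 (SE 0.25, adjusted p = 0.0721 by edgeR) and -0.66 (SE 0.25, adjusted p = 0.0653 by edgeR).

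Regulators known to act on Hox clusters were read next. The caudal genes Cdx1 and Cdx2, intestinal homeobox factors that act upstream of Hox genes, were lower in wild-type tumours of both sexes. Cdx1 fell, at -1.60 (SE 0.18, adjusted p = 8.99e-06 by edgeR) in wild-type males, -0.84 (SE 0.18, adjusted p = 0.00520 by edgeR) in knock-in males and -1.75 (SE 0.18, adjusted p = 8.79e-07 by edgeR) in wild-type females. Cdx2 fell, at -1.71 (SE 0.32, adjusted p = 0.000593 by edgeR) and -1.50 (SE 0.32, adjusted p = 0.000753 by edgeR) in wild-type males and females, with -0.41 (SE 0.30, adjusted p = 0.345 by edgeR) in knock-in males. In the list of Cdx genes and their upstream regulators, 5 of 8 were tested, with 3, 1 and 3 higher and 2, 1 and 2 lower and medians of 0.54, 0.42 and 0.61. Cdx2 is also one of the colon epithelium markers above. T, the mesoderm factor Brachyury, and Gdf11, a ligand that sets the trunk to tail transition, were among the higher genes in wild-type males at 2.17 (SE 0.74, adjusted p = 0.0308 by edgeR) and 1.98 (SE 0.62, adjusted p = 0.0211 by edgeR). In wild-type females they rose by 7.23 (SE 1.08, adjusted p = 3.77e-05 by edgeR) and 4.96 (SE 0.78, adjusted p = 7.73e-05 by edgeR). The knock-in male values were 1.56 (SE 0.74, adjusted p = 0.141 by edgeR) and 0.42 (SE 0.61, adjusted p = 0.650 by edgeR). In wild-type normal colon both were lower in females than in males, at -4.15 (SE 1.12, adjusted p = 0.0199 by edgeR) and -3.21 (SE 0.76, adjusted p = 0.0109 by edgeR).

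Of 18 genes of the retinoic acid pathway, the signal that switches on anterior Hox genes in the embryo, 15 were tested, with 3, 1 and 8 higher and 2, 2 and 2 lower in tumours of wild-type males, knock-in males and wild-type females and list medians of 0.55, 0.45 and 1.21. Aldh1a1, which makes retinoic acid, fell, at -2.92 (SE 0.40, adjusted p = 4.15e-05 by edgeR) and -3.53 (SE 0.41, adjusted p = 3.14e-06 by edgeR) in wild-type males and females, with -0.16 (SE 0.34, adjusted p = 0.775 by edgeR) in knock-in males. Aldh1a3, another Aldh1a gene of this list, went the other way. It rose by 1.82 (SE 0.58, adjusted p = 0.0390 by edgeR) in knock-in males. Aldh1a3 was also higher in wild-type female tumours (adjusted p = 0.000864 by edgeR). The genotype difference in the male tumour change of Aldh1a1 was 2.77 (SE 0.52, adjusted p = 0.0406 by edgeR). Stra6, a retinol transporter, rose by 2.75 (SE 0.83, adjusted p = 0.0181 by edgeR) and 5.96 (SE 1.00, adjusted p = 0.000184 by edgeR) in wild-type males and females, with 0.72 (SE 0.78, adjusted p = 0.537 by edgeR) in knock-in males. All 22 Polycomb and trithorax genes, which hold Hox clusters silent or active through chromatin, were tested, with 6, 6 and 9 higher and 2 lower in each comparison, and medians of 0.29, -0.05 and 0.27. Ezh2, the methyltransferase of Polycomb complex PRC2, rose by 0.90 (SE 0.12, adjusted p = 3.63e-05 by edgeR) in wild-type males, 0.79 (SE 0.12, adjusted p = 0.00176 by edgeR) in knock-in males and 1.27 (SE 0.12, adjusted p = 4.48e-07 by edgeR) in wild-type females. Cbx2, a Polycomb reader subunit, rose by 1.34 (SE 0.27, adjusted p = 0.00100 by edgeR) and 2.24 (SE 0.29, adjusted p = 5.76e-06 by edgeR) in wild-type males and females, with 0.25 (SE 0.27, adjusted p = 0.532 by edgeR) in knock-in males. Of the 9 Hox cofactors of the Pbx and Meis families, which bind DNA together with Hox proteins, 1 was higher and 2 were lower in wild-type male tumours, and 0 were called in the other tumour comparisons, with medians of -0.37, -0.14 and 0.12. Meis1 fell, at -2.15 (SE 0.66, adjusted p = 0.0193 by edgeR), as did Pbx3, at -0.78 (SE 0.21, adjusted p = 0.00706 by edgeR), while Pbx4 rose by 1.87 (SE 0.70, adjusted p = 0.0452 by edgeR). The median over all tested genes was 0.01 in each tumour comparison. Beside these lists and that of the Cdx genes, 16.5%, 10.4% and 25.0% of all tested genes were higher. The lower share was 19.3%, 9.97% and 24.0% in tumours of wild-type males, knock-in males and wild-type females.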

How the data were processed

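Mouse colon RNA was extracted in Qiazol, RNase H served for rRNA depletion, and random hexamers primed the libraries, per the labels' protocols. The authors deposited whole-number read counts per gene in 1 table; per the submitters' processing notes Trimmomatic, HISAT2, featureCounts, DESeq2 and mm10 were used, with no versions or strand setting given in the sources used here. All 21 columns were used and 0 left out. The authors' own table of DESeq2 comparisons was not used here. Totals ran from 3414123 to 26174008 counts, and intervals and limits from counts cover counting error only.

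Counts were fitted with edgeR 4.0.16 in R 4.3.3 (TMM, filterByExpr, robust quasi-likelihood, 1 coefficient per group, 14 residual degrees of freedom). The 9 pairwise comparisons and 3 interactions were each adjusted by Benjamini-Hochberg over 15936 genes at 0.05. DESeq2 1.42.0 and limma 3.58.1 served as alternatives, with other scalings, filters, a replicate block and each library left out. On simulated data for the wild-type male tumour comparison (15728 genes), 59 of 100 changes of 1 and 90 of 100 of 2 on the log2 scale were recovered, and 5 of 15528 unchanged genes were called. The simulation changed far fewer genes than were called in the data. It changed none with low counts, so it does not give the recovery for members with low counts. Exon lengths, overlaps and gene positions came from GENCODE M21, promoters and microRNAs from RefSeq GRCm38.p6. The level plotted across members is log2(CPM + 0.1).

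The members and gene lists were chosen with earlier results of these data known. Of HoxA, 1 member enters the fits, counts and sums and is not reported here. Values by library are given for up to 4 called members of each cluster with the largest change and a group mean of at least 20 counts, and for the 2 members with the highest CPM. Up to 3 called genes of each other list were to be named by size of change. Some of these are left out, among them Kdm6b, Phf19 and Rarb. Other genes were named after their values were seen. Libraries of equal replicate number deviated together in the wild-type male tumour comparison (r = 0.175, 0.177 and 0.221 for numbers 1, 2 and 3) and not in every pair elsewhere. The pairing there comes from the label numbers alone. The largest r, 0.477, was between replicate 1 of knock-in and of wild-type male normal colon, with -0.212 and -0.0740 for numbers 2 and 3. Mice of different genotype cannot be the same animal, so such r values do not by themselves mark shared animals. In knock-in female normal colon 2 columns share 1 header and carry no number of their own.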

Additional observations from a re-analysis of the deposited data

Results flagged for a closer look

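In knock-in male tumour replicate 3, 3 HoxC genes that passed no filter stood above every normal library. Hoxc10 had 35 counts, against at most 2 in any other library. Hoxc8 had 8 counts, against at most 2 elsewhere, and Hoxc11 had 6, against at most 1 elsewhere. These values come from 1 library.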

How the results depend on the processing

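Of 1889 values for 10 members in 12 comparisons under the alternatives, 1821 kept their side of the threshold, 42 gained and 26 lost a call. Most of the 1889 had no call in the main fit, so the share kept does not measure how stable the calls are. The losses fell on Hoxa2, Hoxa6, Hoxa10, Hoxb2, Hoxb8 and, in wild-type males, Hoxb13. No call of Hoxa4, Hoxa9 or Hoxa13 was lost. A sign change was seen in 60 of the 1889 values, and 0 of these were called in either fit. The count of 6 called members in wild-type male tumours was 3 with a mean of at least 50 counts (fewer members tested), 7 with library totals or the compared groups alone, 8 by DESeq2, 9 by limma voom and 3 to 6 with 1 library left out. In knock-in male tumours that range was 2 to 3, and in wild-type female tumours 4 to 8, with 7 by DESeq2. Knock-in against wild-type male tumours gave 1 by DESeq2, by limma voom and with the compared groups alone, and 0 to 1 with 1 library left out. Knock-in against wild-type female normal colon gave 0 with a mean of at least 50 counts, 5 by limma voom and 0 to 2 with 1 library left out. Female against male wild-type normal colon gave 2 with library totals, 4 by limma voom, 2 with the replicate block, 2 with the term for libraries numbered 152 and above and 1 to 2 with 1 library left out. By limma voom the knock-in normal and wild-type tumour sex comparisons gave 1 and 2. Limma voom called 7198 genes in all in wild-type male tumours, against 5697 in the main fit. It called 4457 against 2545 in the female genotype comparison, and 5317 against 2534 in the wild-type normal sex comparison. The genotype difference in the tumour effect gave 1 by DESeq2, 1 by limma voom and 0 to 2 with 1 library left out; the sex difference gave 2 by limma voom, 1 with the compared groups alone and 0 to 1; the sex difference in the genotype effect gave 0 to 1. Where not stated, the cause was not tested. Library totals moved the median of all genes by 0.143 in the wild-type female tumour comparison. With the replicate block on the 18 numbered libraries 7 members were called in wild-type male tumours, and 7 without the block on those libraries. No paired analysis was possible for knock-in females because 2 columns carry no number. Depth limits Hoxb1, HoxC and the HoxB genes from Hoxb2 to Hoxb8, whose counts are low.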
